A study of Mus musculus with 18 samples.

Results

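To compare translational efficiency (TE) between *Mettl3* and *Fto* knockout cortices, the 12 Ribo-seq and RNA-seq libraries of both knockouts were taken from the 18 libraries of the series. TE is the abundance of ribosome-protected fragments of a gene relative to its RNA, and the comparison asks whether this ratio differed between the knockouts. All embryos were C57BL/6 by the labels, while the floxed lines had a mixed background with 129 by the methods, and cerebral cortices were collected at embryonic day 15.5. *M*-cKO cortices carried a floxed *Mettl3* gene and *F*-cKO cortices a floxed *Fto* gene, both deleted by *Emx1-Cre*. Emx1 is active in the dorsal cortical lineage, so vessels, microglia, meninges and neurons that migrate in from outside keep both genes. Wild-type cortices (Ctrl) made up the remaining 6 libraries and are given beside the knockouts for some genes and groups. Each genotype had 3 Ribo-seq and 3 RNA-seq libraries, described as biological repeats. The methods can be read as taking the Ribo-seq cortices of a genotype from a single litter, so *P* values measure the spread between these libraries only.

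Mettl3 is the catalytic subunit of the complex that writes *N*6-methyladenosine (m6A), the most common internal modification of messenger RNA, and Fto removes methyl groups from RNA. Reader proteins bind m6A and affect the splicing, export, decay and translation of the marked RNA. In ribosome profiling, RNase digests everything outside the ribosome, and the protected fragments that remain are sequenced and counted per gene, while RNA-seq of the same tissue gives the amount of RNA present.

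Counts were available for 14348 genes in every library of both tables, of which 12828 were annotated as protein-coding. Over these genes, Ribo-seq libraries held 10973699 to 35853227 fragments and RNA-seq libraries 18127973 to 22163704. Levels below are CPM, counts scaled to library size with TMM factors for both assays together, and all differences are *M*-cKO minus *F*-cKO on the log2 scale. The biological coefficient of variation, a measure of the spread between replicates, was 0.414 among the Ribo-seq libraries and 0.091 among the RNA-seq libraries. One library stood apart. In *F*-cKO Ribo-seq replicate 2, the smallest of all, 788 of 9848 well-covered genes (8.0%) lay over 4-fold above the median of the other 8 Ribo-seq libraries, against 0 to 45 genes in each of those 8. TE results are therefore given with all 12 libraries and with the 11 libraries that leave it out. Summed levels of 9 cortical markers overlapped between genotypes in Ribo-seq, at 2932 to 3288 CPM in Ctrl, 2813 to 3040 CPM in *M*-cKO and 2339 to 3164 CPM in *F*-cKO. In RNA-seq they summed to 2220 to 2375, 2520 to 2626 and 2676 to 2760 CPM, without overlap. By contrast, 7 markers of the ganglionic eminence and interneurons summed to 287 to 522 CPM in *M*-cKO Ribo-seq and 175 to 210 CPM in *F*-cKO. In RNA-seq the same markers summed to 493 to 661 CPM and 348 to 467 CPM, and their part in the results below was not tested. In bulk tissue, a change in the number of cells of a type and a change in the RNA per cell cannot be told apart.

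The targeted genes were examined first. *Mettl3* (chr14:52294841-52308741, GRCm38.p6) had Ribo-seq levels of 32.7, 31.4 and 31.1 CPM in *M*-cKO, compared to 45.0, 48.7 and 42.2 CPM in *F*-cKO and 44.5, 44.4 and 47.9 CPM in Ctrl. RNA-seq levels went the other way, at 38.1, 34.5 and 36.9 CPM in *M*-cKO, 28.3, 27.7 and 23.8 CPM in *F*-cKO and 26.4, 29.1 and 23.1 CPM in Ctrl. Thus *M*-cKO libraries were the lowest of all in Ribo-seq and the highest of all in RNA-seq, with no overlap with either other genotype. The log2 TE difference of *Mettl3* was -0.97 ± 0.158 (SE; edgeR quasi-likelihood test, adjusted *P* = 0.317), and -0.91 ± 0.141 without *F*-cKO Ribo-seq replicate 2 (adjusted *P* = 0.0964). An edgeR fit that includes the 6 Ctrl libraries called *Mettl3* lower in both sets (adjusted *P* = 0.0323 and 0.0177), as did DESeq2 (adjusted *P* = 2.21e-06 and 1.39e-05). A fit of the RNA-seq libraries alone gave 1.41-fold more *Mettl3* RNA in *M*-cKO than in *F*-cKO (adjusted *P* = 0.00174). *Mettl3* overlaps *Tox4*, and reads of overlapping genes cannot be assigned with certainty without strand. The knockout removes some exons of *Mettl3*, and the paper proposes that its knockout strategy might be the reason for more RNA with less Ribo-seq signal. Counts were per gene and did not separate deleted from remaining exons, so TE of *Mettl3* is only a ratio of counts.

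*Fto* (chr8:91313367-91668433, GRCm38.p6) had Ribo-seq levels of 46.8, 29.5 and 49.8 CPM in *F*-cKO, compared to 323, 318 and 276 CPM in *M*-cKO and 323, 271 and 217 CPM in Ctrl. In RNA-seq, *F*-cKO libraries had 37.6, 88.0 and 28.4 CPM, *M*-cKO libraries 155, 137 and 152 CPM and Ctrl libraries 126, 130 and 97.9 CPM. All *F*-cKO libraries lay below every other library in both assays, but the RNA-seq library labelled *F*-cKO replicate 2 was close to the lowest Ctrl library. In Ribo-seq, *Fto* fell in *F*-cKO relative to *M*-cKO, with a log2 difference of 2.86 (adjusted *P* = 0.0126, and adjusted *P* = 0.0748 with the replicate number as a block in both assays), whereas the log2 TE difference of 1.33 ± 0.498 (1.13 ± 0.480 without Ribo-seq replicate 2) did not pass the test (adjusted *P* = 0.929 and 0.477). An exon of *Fto* is likewise deleted in *F*-cKO, so TE of *Fto* too is only a ratio of counts. For either targeted gene in either assay, an exact permutation test of 3 against 3 libraries gave *P* = 0.1, the smallest value it can give.

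**Figure D1:**
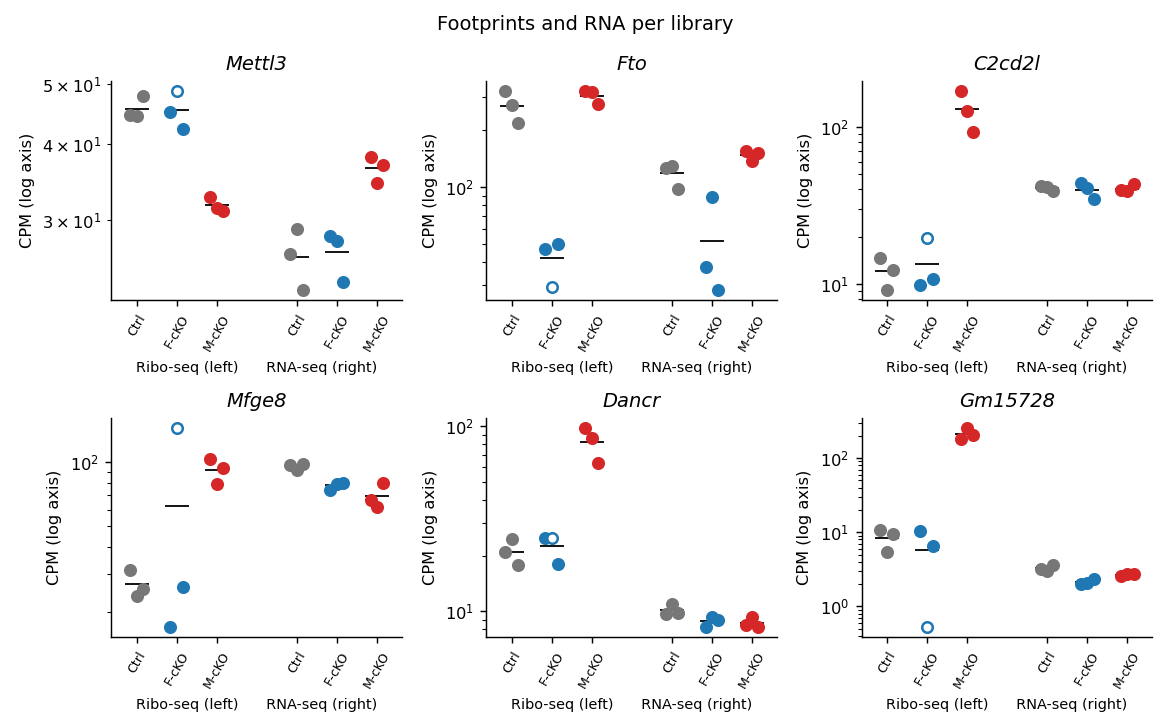
CPM on a log axis in each Ribo-seq and RNA-seq library of Ctrl, *F*-cKO and *M*-cKO for 6 genes, with bars at the group means and the open blue point marking *F*-cKO Ribo-seq replicate 2. *C2cd2l* reached 92.3 to 169 CPM in *M*-cKO Ribo-seq and at most 19.7 CPM in the other Ribo-seq libraries, while *Mfge8* had 145 CPM in the open point.

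Next, the TE difference was tested for 14314 genes. With all 12 libraries, 0 genes were called higher and 0 lower in *M*-cKO at an adjusted *P* below 0.05 by the edgeR quasi-likelihood test (0% of genes each, smallest adjusted *P* = 0.0856). At an unadjusted *P* below 0.05, 316 genes (2.21%) were higher and 227 (1.59%) lower. DESeq2 called 23 genes higher, of which 8 were protein-coding and 15 were miRNA, snoRNA, long noncoding or unclassified genes, and 2 lower, limma voom with a variance per assay called 4 higher, and an edgeR fit that paired the Ribo-seq libraries by replicate number called 2 higher, *C2cd2l* (adjusted *P* = 0.0375) and *Dancr*. The edgeR fit with the Ctrl libraries called 4 higher and 1 lower. Without *F*-cKO Ribo-seq replicate 2, 5 genes (0.0349%) were called higher in *M*-cKO and 0 (0%) lower, and 973 (6.79%) and 454 (3.17%) passed an unadjusted *P* below 0.05. In that 11-library set, DESeq2 called 87 genes higher (62 of them protein-coding) and 31 lower, all protein-coding, limma voom with a variance per assay 4 higher, and the paired fit 8 higher and 1 lower. Counted without a model, each knockout gives 9 differences of a Ribo-seq and an RNA-seq library. These lay wholly above those of *F*-cKO in *M*-cKO for 332 genes (2.32%) and wholly below for 90 (0.629%). Of these, 208 and 87 were protein-coding. Without the replicate, the counts were 925 (6.46%) and 450 (3.14%), of which 709 and 417 were protein-coding. Fewer *F*-cKO differences then remained, which makes such a separation easier to reach.

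Each side of the ratio was also examined on its own. In the 12-library fit, RNA levels were higher in *M*-cKO for 4 genes (0.0279%) and lower for 7 (0.0489%), and Ribo-seq levels were higher for 178 (1.24%) and lower for 60 (0.419%). Without *F*-cKO Ribo-seq replicate 2 the RNA counts were 443 (3.09%) and 550 (3.84%), and the Ribo-seq counts 719 (5.02%) and 550 (3.84%). All these counts use a spread shared by both assays. A fit of the 6 RNA-seq libraries alone called 4397 genes, 2254 higher and 2143 lower. A fit of the 6 Ribo-seq libraries alone by the same edgeR test called 0, with 715 genes higher and 445 lower at an unadjusted *P* below 0.05, whereas DESeq2 called 1074 in the 12-library set. With Ribo-seq libraries paired by replicate number, 998 genes were called in Ribo-seq, and with the numbers as a block in both assays 3. For RNA, DESeq2 called 443 genes in the 12-library set and edgeR with the block in both assays 0 (835 higher and 1309 lower at an unadjusted *P* below 0.05). The counts for both assays thus depended on the fit, and these fits differed in scaling, libraries or design as well as in the spread.

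The gene with the smallest *P* value among protein-coding genes was *C2cd2l* (chr9:44309237-44320282, GRCm38.p6), which encodes a lipid transfer protein at contacts of the endoplasmic reticulum (ER) with the plasma membrane. Its Ribo-seq levels were 169, 126 and 92.3 CPM in *M*-cKO, compared to 9.8, 19.7 and 10.7 CPM in *F*-cKO and 14.7, 9.17 and 12.2 CPM in Ctrl. Its RNA ranged only from 34.8 to 44.0 CPM over all 9 RNA-seq libraries. The *M*-cKO Ribo-seq libraries thus lay far above all others, whereas the RNA-seq libraries of the 3 genotypes overlapped. The log2 TE difference was 3.25 ± 0.392 with all libraries (adjusted *P* = 0.0856) and 3.62 ± 0.293 without *F*-cKO Ribo-seq replicate 2 (adjusted *P* = 0.000769). Over 33 settings of the analysis that differed in tool, scaling, filter, pairing or libraries, *C2cd2l* was called in 15, among them 6 of the 24 that kept that replicate.

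*Mfge8* (chr7:79133768-79149060, GRCm38.p6) encodes a secreted glycoprotein that bridges apoptotic cells to phagocytes, and it belongs to the radial glial cell (RGC) gene pool of the study. Ribo-seq levels were 103, 79.4 and 93.9 CPM in *M*-cKO and 31.4, 23.8 and 25.6 CPM in Ctrl. In *F*-cKO they were 17.0, 145 and 26.2 CPM, and the value above all others came from replicate 2. RNA levels were 66.6, 61.4 and 80.1 CPM in *M*-cKO and 74.3, 78.6 and 80.2 CPM in *F*-cKO, and overlapped. Its log2 TE difference was 2.25 ± 0.244 without the replicate (adjusted *P* = 0.00946) and 0.73 ± 0.853 with it (adjusted *P* = 0.948), so that a single library decided this call.

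The other 3 called genes were not protein-coding, and for them TE is only a ratio of fragments to RNA. *Dancr* (chr5:74093060-74094337, GRCm38.p6), a long noncoding RNA that hosts small nucleolar RNAs and overlaps *Snora26*, had 98.0, 86.2 and 63.1 CPM in *M*-cKO Ribo-seq and 24.9, 24.9 and 18 CPM in *F*-cKO. All 9 RNA-seq libraries had 8.26 to 11 CPM. Its log2 difference was 1.89 ± 0.259 (adjusted *P* = 0.0923) with 12 libraries and 1.97 ± 0.260 (adjusted *P* = 0.0448) with 11. With Ribo-seq libraries paired by replicate number, *Dancr* was called in both sets (adjusted *P* = 0.00639 and 0.00134), and with the numbers as a block in both assays it was not called with 11 (adjusted *P* = 0.136). *Gm15728* (chr5:117389122-117391460, GRCm38.p6), a long noncoding RNA, had 184, 257 and 203 CPM in *M*-cKO Ribo-seq and 10.4, 0.533 and 6.43 CPM in *F*-cKO, beside 5.33 to 10.6 CPM in Ctrl. RNA levels of *Gm15728* stayed between 1.98 and 3.60 CPM. *Gm37608*, with no biotype in the reference, had 127, 142 and 47.8 CPM in *M*-cKO Ribo-seq and 3.13, 0.853 and 1.27 CPM in *F*-cKO. For both genes, Ribo-seq levels in every *M*-cKO library exceeded those in every Ctrl and *F*-cKO library. Log2 differences without the replicate were 4.35 ± 0.299 for *Gm15728* (adjusted *P* = 0.00029) and 7.69 ± 1.04 for *Gm37608* (adjusted *P* = 0.0463). With the block in both assays and without the replicate, *Gm37608* was not called (adjusted *P* = 0.105). It rests on low RNA counts, with RNA levels of 0.748 to 1.19 CPM in *M*-cKO and 1.16 to 7.75 CPM in *F*-cKO.

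To place these genes beside the controls, TE was also set against Ctrl in a fit of the libraries of all genotypes without *F*-cKO Ribo-seq replicate 2. Both contrasts share the Ctrl libraries and are listed only side by side. *C2cd2l* differed from Ctrl by 3.43 in *M*-cKO and by -0.19 in *F*-cKO, and *Mfge8* by 2.24 and -0.01. Log2 differences from Ctrl were 2.20 in *M*-cKO and 0.23 in *F*-cKO for *Dancr*, and 4.93 and 0.58 for *Gm15728*. *Mettl3* differed from Ctrl by -1.0 in *M*-cKO and by -0.09 in *F*-cKO.

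Among protein-coding genes with the next smallest *P* values for a higher TE in *M*-cKO, some had a difference in Ribo-seq and some in RNA. *Neil1*, a DNA glycosylase of base excision repair, had 7.39, 7.03 and 6.23 CPM in *M*-cKO Ribo-seq and 3.19, 2.98 and 3.23 CPM in *F*-cKO, with RNA levels of 7.96 to 8.83 and 8.0 to 9.52 CPM. *Inpp5f*, an inositol phosphatase, had 111, 99.7 and 118 CPM in *M*-cKO Ribo-seq and 63.6, 60.4 and 67.1 CPM in *F*-cKO. Both thus separated in Ribo-seq and overlapped in RNA, with log2 TE differences of 1.19 for *Neil1* (adjusted *P* = 0.651) and 0.77 for *Inpp5f* (adjusted *P* = 0.681), and of 1.16 and 0.74 without *F*-cKO Ribo-seq replicate 2. DESeq2 called both higher with 12 libraries (adjusted *P* = 0.00464 and 0.0275) and with 11 (adjusted *P* = 0.0117 and 0.00782). By contrast, *Sarnp*, an RNA-binding component of the machinery for messenger RNA export, had 14.8, 17.4 and 14.0 CPM in *M*-cKO RNA-seq and 35.1, 39.6 and 33.0 CPM in *F*-cKO. Its Ribo-seq levels were 73.2, 78.9 and 73.5 CPM in *M*-cKO and 116, 100 and 87.5 CPM in *F*-cKO. *Sarnp* RNA was thus less than in *F*-cKO by more than its Ribo-seq signal was, and the log2 TE difference was 0.79 in both sets (adjusted *P* = 0.929 and 0.328, and 0.069 and 0.0302 by DESeq2). *Zfp142*, a zinc finger protein, and *Lcor*, a corepressor of nuclear receptors, also had less RNA in *M*-cKO. Their log2 TE differences were 0.81 (adjusted *P* = 0.651) and 1.27 (adjusted *P* = 0.681), and 0.79 and 1.39 without the replicate. DESeq2 called both higher in both sets, and the edgeR fit with the Ctrl libraries called *Lcor* without the replicate (adjusted *P* = 0.0215). *Lcor* overlaps *Morf4l1b* and *Mir8091*.

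Genes with the smallest *P* values for a lower TE in *M*-cKO followed. *Ube2r2*, a ubiquitin-conjugating enzyme, had Ribo-seq levels of 159, 136 and 163 CPM in *M*-cKO and 212, 243 and 214 CPM in *F*-cKO. Its RNA levels were 180, 177 and 182 CPM in *M*-cKO and 155, 160 and 168 CPM in *F*-cKO. *M*-cKO was below *F*-cKO in Ribo-seq and above it in RNA, without overlap in either assay, and the log2 TE difference was -0.70 ± 0.139 (adjusted *P* = 0.654), and -0.64 ± 0.125 (adjusted *P* = 0.190) without *F*-cKO Ribo-seq replicate 2. DESeq2 called *Ube2r2* lower in both sets (adjusted *P* = 0.00175 and 0.000933), and the edgeR fit with the Ctrl libraries did so without the replicate (adjusted *P* = 0.040). *Usp39*, a ubiquitin-like protease homologue that acts in splicing, had 14.1, 5.58 and 6.30 CPM in *M*-cKO RNA-seq and 3.31, 2.31 and 3.19 CPM in *F*-cKO. The fit of RNA-seq libraries alone called this 3.03-fold difference in *Usp39* RNA (adjusted *P* = 0.00414), whereas Ribo-seq levels overlapped, at 88.8 to 113 and 88.7 to 127 CPM. *Setdb1*, a histone H3 lysine methyltransferase, and *Twnk*, the mitochondrial DNA helicase, showed the same form, with RNA higher in *M*-cKO by 1.4-fold and 1.51-fold and Ribo-seq log2 differences of 0.00 and 0.02. TE differences with and without the replicate were -1.68 and -1.82 for *Usp39*, -0.45 and -0.47 for *Setdb1* and -0.54 and -0.47 for *Twnk*, and DESeq2 without the replicate called *Usp39* (adjusted *P* = 0.00571) and *Setdb1* (adjusted *P* = 0.0346). *Setdb1* overlaps *Cers2*, and *Twnk* overlaps *Mrpl43*. Genes named elsewhere that overlap a protein-coding neighbour are *Rbm15* with *Slc16a4*, *Rpl35* with *Wdr38*, *Rpl35a* with *Iqcg* and *Cox7a2* with *Tmem30a*.

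Without *F*-cKO Ribo-seq replicate 2, *Cript*, a partner of the postsynaptic scaffold, came closest to a call for lower TE. Its Ribo-seq levels were 31.6, 29.1 and 34.3 CPM in *M*-cKO and 53, 28.1 and 52.8 CPM in *F*-cKO, and replicate 2 was the *F*-cKO library that overlapped *M*-cKO. The log2 TE difference was -0.60 with it (adjusted *P* = 0.929) and -0.84 without it (adjusted *P* = 0.0702). *Plcd4*, a phospholipase C, had -1.46 and -1.68 (adjusted *P* = 0.929 and 0.0964), and it overlaps *Usp37*. The elongation factor subunit *Eef1g* had -0.55 and -0.71 and the ubiquitin-conjugating enzyme *Ube2l3* -0.35 and -0.65. None of these passed the edgeR test of the 12 or 11 libraries. DESeq2 without the replicate called *Cript* (adjusted *P* = 1.6e-06), *Plcd4* (adjusted *P* = 3.34e-05), *Eef1g* (adjusted *P* = 6.87e-05) and *Ube2l3* (adjusted *P* = 0.00535) lower, and the edgeR fit that paired the Ribo-seq libraries called *Plcd4* (adjusted *P* = 0.0281). The edgeR fit with the Ctrl libraries and without the replicate called *Cript* (adjusted *P* = 0.00482) and *Plcd4* (adjusted *P* = 0.0126).

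**Figure D2:**
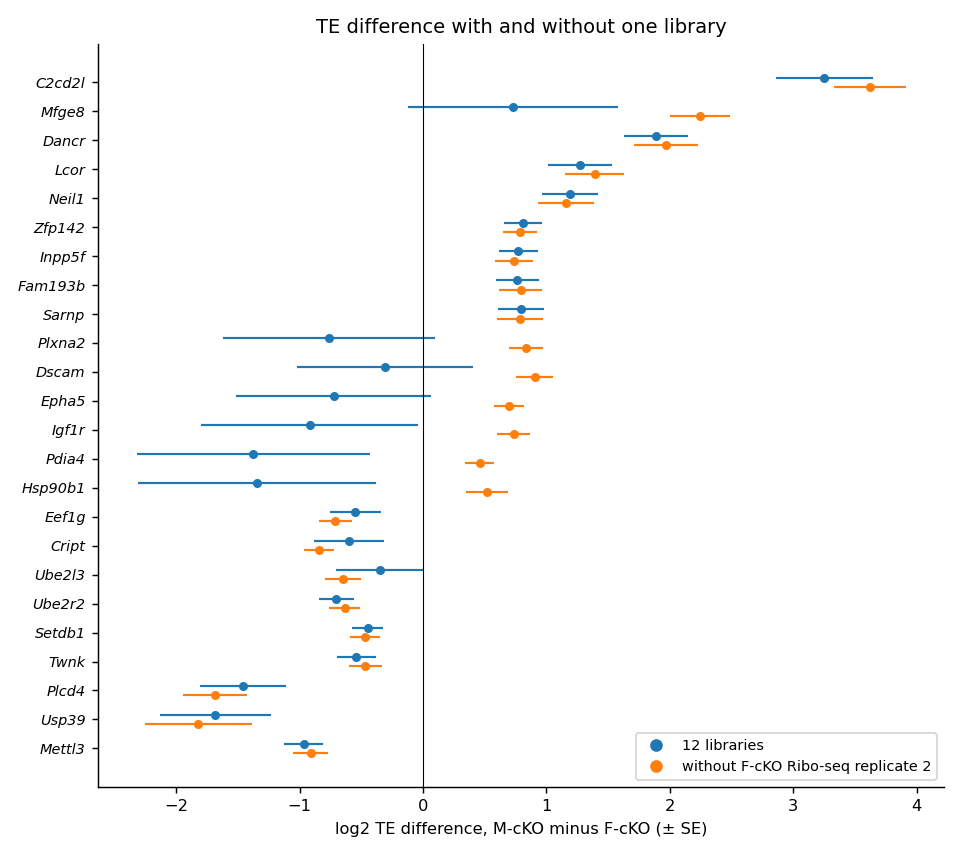
Log2 TE difference, *M*-cKO minus *F*-cKO, of 24 genes, with error bars of 1 SE, from all 12 libraries and from the 11 libraries without *F*-cKO Ribo-seq replicate 2. *C2cd2l* keeps its place at 3.25 and 3.62, while *Mfge8* moves from 0.73 to 2.25 and *Plxna2* from -0.76 to 0.84.

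The m6A machinery was examined as 9 writers, 2 erasers and 12 readers, all measured. No member was called for TE by the edgeR test of the 12 or 11 libraries. *Mettl3*, which lacks exons in *M*-cKO, was the member called by DESeq2 and by the edgeR fit with the Ctrl libraries. At an unadjusted *P* below 0.05 with all libraries, 1 of 9 writers was higher (11.1%, compared to 2.21% of all genes). Lower was 1 (11.1%, compared to 1.59%), *Mettl3* itself. The higher writer was *Zc3h13*, a scaffold of the writer complex, with a log2 TE difference of 0.50 ± 0.160 (adjusted *P* = 0.929) and 0.44 without *F*-cKO Ribo-seq replicate 2. The reader *Ythdc1*, which binds m6A in the nucleus, had 0.35 ± 0.151 (adjusted *P* = 0.929) and 0.38, and the eraser *Alkbh5* had 0.11 with all libraries and 0.25 ± 0.103 (adjusted *P* = 0.466) without the replicate. *Rbm15*, an adaptor that brings the writer complex to RNA, was higher in *M*-cKO than in *F*-cKO in both assays. It had 150, 125 and 136 CPM in *M*-cKO Ribo-seq and 80.9, 55.3 and 62.3 CPM in *F*-cKO, and 48.3, 44.6 and 40.5 CPM against 23.4, 25.2 and 24.4 CPM in RNA-seq. No library of one knockout reached the other. The log2 difference of *Rbm15* in Ribo-seq was 1.05 (adjusted *P* = 0.0150, and adjusted *P* = 0.0713 with the block in both assays) and its RNA was 1.88-fold higher (adjusted *P* = 5.34e-05, fit of RNA-seq alone), leaving a log2 TE difference of 0.18 ± 0.203 (adjusted *P* = 0.943), and 0.07 without the replicate. *Wtap*, the regulatory subunit, had TE differences of 0.48 (adjusted *P* = 0.929) and 0.29 in the 2 sets, and *Mettl14*, the partner of Mettl3 in the catalytic core, 0.10 (adjusted *P* = 0.987) and 0.07.

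Genes of proteins made at the ER moved between the 12 and 11 libraries. These proteins are translated by ribosomes bound to the ER membrane and enter the secretory pathway. In *F*-cKO Ribo-seq replicate 2, 17 of 22 well-covered ER chaperones lay over 4-fold above the other 8 Ribo-seq libraries, with a median of 5.57-fold. Similarly, 19 of 28 lysosomal and secreted luminal proteins and 19 of 21 collagens, laminins and meningeal matrix genes did so, with medians of 6.02-fold and 8.95-fold. Among subunits of the ER translocon and signal peptidase it was 9 of 23, among genes of the mitochondrial genome 5 of 7, although *M*-cKO Ribo-seq replicate 2 was nearly as high for these (medians of 2.07 and 2.22 above the Ctrl mean on the log2 scale), and among ribosomal proteins, zinc finger proteins and proteasome subunits 0. The 5 endothelial markers summed to 333 CPM in this library, compared to 14.8 and 21.8 CPM in the other *F*-cKO Ribo-seq libraries, 13.0 to 22.7 CPM in *M*-cKO and 18.4 to 28.7 CPM in Ctrl. In *F*-cKO RNA-seq they summed to 101 to 112 CPM, close to the 96.6 to 133 CPM of *M*-cKO. Whether cell content or fragment recovery moved this library was not tested.

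The medians of these groups moved with that single library, and those of chaperones, the translocon group and protocadherins changed sign without it. The median log2 TE difference of 23 ER chaperones was -1.10 with it, with all 23 negative, and 0.19 without it, with 17 positive. The chaperone *Hsp90b1* had 99.4, 827 and 85.3 CPM in *F*-cKO Ribo-seq and 86.5, 100 and 112 CPM in *M*-cKO, and its TE difference went from -1.35 to 0.52. The disulfide isomerase *Pdia4* went from -1.37 to 0.46. Among 48 clustered protocadherins, adhesion proteins of neurons, the median went from -0.70 to 0.40 and the number above 0 from 2 to 41. Medians of the translocon group went from -0.56 to 0.06, of luminal proteins from -1.39 to -0.06, and of collagens and laminins from -1.92 to -0.17, while the median of all genes was 0.00 and 0.05. Genes of the mitochondrial genome went from 0.14 to 1.07, where *M*-cKO Ribo-seq replicate 2, also high for them, was kept. The endothelial markers went from -2.78 to -0.18. No member of these groups was called in either set by edgeR, DESeq2 or limma voom with a variance per assay, and DESeq2 gave no adjusted *P* for some of them with 12 libraries, *Hsp90b1* and *Pdia4* included.

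Several single genes of membrane proteins, named for their *P* values or as members of other groups, also changed sign without this library. They were not tested as a group. *Plxna2*, a semaphorin receptor, had 108, 802 and 119 CPM in *F*-cKO Ribo-seq and 125, 134 and 147 CPM in *M*-cKO. Its RNA was 580, 565 and 659 CPM in *F*-cKO and 397, 410 and 399 CPM in *M*-cKO. Only replicate 2 stood above *M*-cKO in Ribo-seq, whereas every *F*-cKO library stood above *M*-cKO in RNA. The TE difference was -0.76 ± 0.860 with the replicate and 0.84 ± 0.138 without it (edgeR adjusted *P* = 0.130, DESeq2 adjusted *P* = 4.45e-06). *Dscam*, an adhesion molecule, went from -0.31 to 0.90, the ephrin receptors *Epha5* and *Epha4* from -0.72 to 0.70 and from -0.93 to 0.57, and the growth factor receptor *Igf1r* from -0.92 to 0.73. *Ptprz1*, a receptor phosphatase of radial glia, had 1083 CPM in replicate 2, compared to 100 and 94.5 CPM in the other *F*-cKO libraries, and went from -1.70 to 0.43. Without the replicate, DESeq2 also called *Dscam* (adjusted *P* = 6.87e-05), *Epha5* (adjusted *P* = 6.62e-05) and *Igf1r* (adjusted *P* = 0.00031) higher. The edgeR fit of the libraries of all genotypes called *Plxna2* (adjusted *P* = 0.0188) and *Igf1r* (adjusted *P* = 0.0429).

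**Figure D3:**
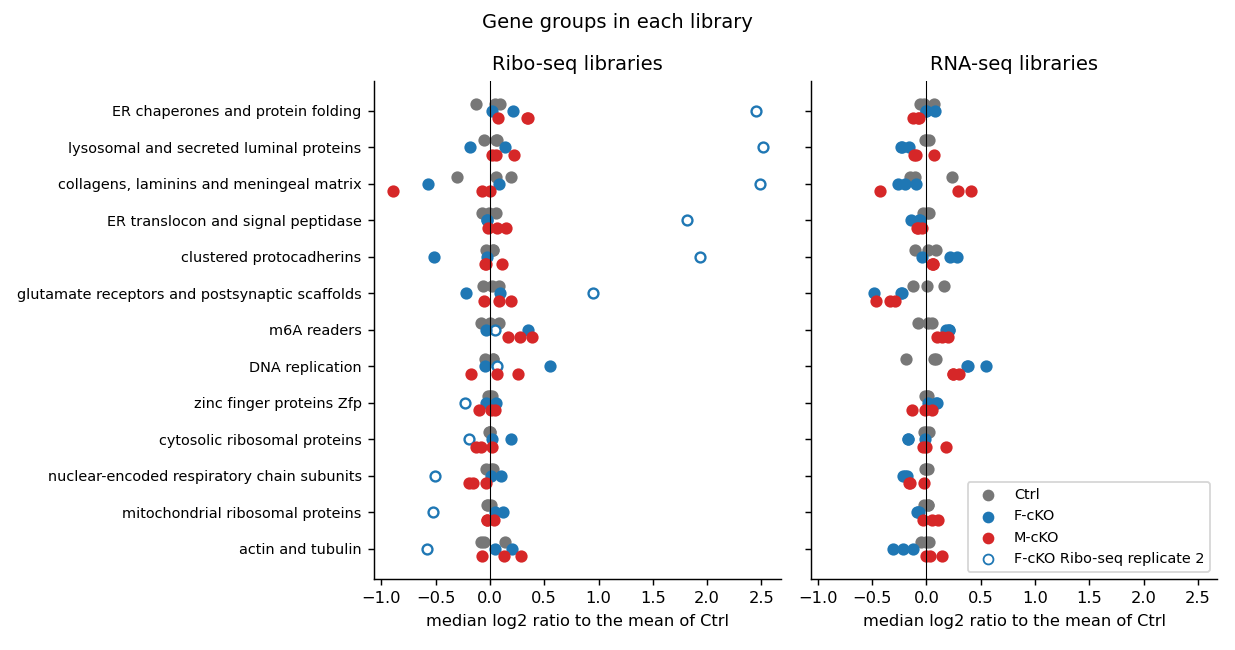
Median log2 ratio of 13 gene groups to the Ctrl mean in each library, Ribo-seq on the left and RNA-seq on the right, 1 point per library. *F*-cKO Ribo-seq replicate 2 is the open point far to the right for the ER, luminal and matrix groups, and the points of the other libraries lie within 1 log2 unit of 0.

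Ribosomal proteins mostly had a TE difference below 0 in both sets. Of 83 cytosolic ribosomal protein genes, 64 had a TE difference below 0 with all libraries and 72 without *F*-cKO Ribo-seq replicate 2, with medians of -0.24 and -0.28. At an unadjusted *P* below 0.05, 10 were lower (12%, compared to 1.59% of all genes) and 1 higher with all libraries. Without the replicate, 27 were lower (32.5%, compared to 3.17% of all genes) and 2 higher. No ribosomal protein gene was called by edgeR in either set. DESeq2 called 0 with all libraries and 6 of 83 lower without the replicate, among them *Rps4x*, compared to 31 of all 14314 genes. As medians over the group in the 11-library set, the RNA-seq difference was 0.18 and the Ribo-seq difference -0.15, and TE is the Ribo-seq minus the RNA-seq difference. Compared to the Ctrl mean, median RNA levels were -0.17, -0.17 and -0.01 in the *F*-cKO libraries and -0.03, -0.01 and 0.18 in the *M*-cKO libraries. Ribo-seq medians were 0.19, -0.20 and 0.02 in *F*-cKO and -0.13, -0.09 and 0.02 in *M*-cKO, so that the knockouts overlapped. Many ribosomal protein genes have processed pseudogenes that can share their reads, and single values are uncertain for this reason.

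*Rps4x*, a protein of the small ribosomal subunit, had 129, 111 and 133 CPM in *M*-cKO Ribo-seq and 186, 123.5 and 172 CPM in *F*-cKO. Replicate 2 was the *F*-cKO library within the range of *M*-cKO, and the log2 TE difference was -0.48 with it (adjusted *P* = 0.929) and -0.63 ± 0.160 without it (adjusted *P* = 0.328). *Rps18* went the other way, with 107, 148 and 101 CPM in *M*-cKO Ribo-seq, 77.6, 82.3 and 63.0 CPM in *F*-cKO and 69.4, 67.1 and 62.1 CPM in Ctrl. All *M*-cKO libraries were the highest, and the log2 TE difference was 0.64 (adjusted *P* = 0.929) with and 0.72 (adjusted *P* = 0.369) without the replicate.

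Many ribosomal protein transcripts start with a C followed by pyrimidines, known as a terminal oligopyrimidine start, which couples their translation to growth signals. Windows of 30 bases centred on the annotated start (RefSeq, GRCm38.p6) are shown for 3 genes that hold such a start and had the smallest *P* values in the 11-library set among those that do, with the run of C and T from the start in capitals.
Rpl35a, chr16:33056467-33056496, plus strand: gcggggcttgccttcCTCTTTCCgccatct
Rpl35, chr2:39005117-39005146, minus strand: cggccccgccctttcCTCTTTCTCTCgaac
Rps18, chr17:33955651-33955680, minus strand: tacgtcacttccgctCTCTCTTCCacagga
*Rpl35a* and *Rpl35* had TE differences of -0.50 and -0.59, and *Rps18* of 0.72. Of the 14 ribosomal protein genes found with such a start, 13 had a TE difference below 0 in that set, and *Rps18* was the exception. A C and 4 further pyrimidines at the annotated start, read on the strand of the gene, were found in 14 of 62 ribosomal protein genes with a window (22.6%), compared to 813 of 27025 genes (3.01%). Median TE differences of ribosomal protein genes were -0.29 with and -0.27 without such a start, and those of other genes 0.03 with (286 genes) and 0.03 without (9756 genes). Annotated starts can be some bases off the start in use.

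Other housekeeping groups had medians below that of all genes in the 11-library set. Of 79 nuclear-encoded subunits of the respiratory chain, 17 were lower at an unadjusted *P* below 0.05 (21.5%, compared to 3.17% of all genes) and 1 higher (1.27%, compared to 6.79%), with a median of -0.27. Among them, *Ndufs5* had 25.2, 19.3 and 25 CPM in *M*-cKO Ribo-seq and 28.7, 6.29 and 50.2 CPM in *F*-cKO, and *Cox7a2* had 157, 153 and 196 CPM and 199, 104 and 282 CPM. In both, *F*-cKO replicate 2 was the lowest library and the other *F*-cKO libraries lay above *M*-cKO. Of 77 mitochondrial ribosomal proteins 10 were lower (13.0%), of 65 translation factors 12 were lower (18.5%) and 3 higher (4.62%), and of 36 proteasome subunits 3 were lower (8.33%), against the same shares of all genes. *Eif3h*, a subunit of initiation factor 3, had a TE difference of -0.20 with the replicate and -0.44 (adjusted *P* = 0.353) without it. With all 12 libraries these counts were 1 lower for respiratory chain (1.27%), 1 for mitochondrial ribosomal proteins (1.3%), 3 for translation factors (4.62%) and 1 for proteasome subunits (2.78%), compared to 1.59% of all genes, and none of the members was called by edgeR in either set. DESeq2 without the replicate called 2 of 65 translation factors, *Eef1g* and *Eif3h*, and 1 of 77 mitochondrial ribosomal proteins, *Mrps18c*, lower, compared to 31 of all 14314 genes.

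Of the ribosomal proteins 80.7% were in the 2 shortest of 8 equal groups of protein-coding genes by length, of respiratory chain subunits 78.2%, of mitochondrial ribosomal proteins 63.2%, of proteasome subunits 58.3% and of translation factors 40%. TE was next set against gene length, as implied by the deposited counts and FPKM values of an RNA-seq library, over 12694 of 12809 protein-coding genes (99.1%). Without *F*-cKO Ribo-seq replicate 2, the median log2 TE difference went from -0.14 in the shortest eighth to 0.20 in the longest, with a Spearman rho of 0.306 across genes. RNA went from 0.13 to -0.20 (rho of -0.293), while Ribo-seq had -0.01 and 0.01 (rho of 0.031). Genes share libraries and are not independent, so no *P* value is given. In the shortest eighth 8.70% of genes were lower at an unadjusted *P* below 0.05 and 2.02% higher. In the longest, 1.01% were lower and 17.0% higher. The shortest eighth without ribosomal proteins, 1533 genes, had a median of -0.13. With all 12 libraries the TE medians were -0.06 and 0.08 (rho of 0.103), those of Ribo-seq 0.03 and -0.13 (rho of -0.119), and RNA was as before. RNA thus moved with length in both sets, and Ribo-seq with all libraries. Set against the Ctrl mean, the *F*-cKO RNA-seq libraries had medians of -0.12, -0.14 and -0.15 for the shortest genes and 0.13, 0.14 and 0.18 for the longest. *M*-cKO RNA-seq libraries had -0.06, -0.05 and 0.07, and -0.01, -0.03 and -0.10. RNA integrity and library preparation were not tested as sources of this trend.

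**Figure D4:**
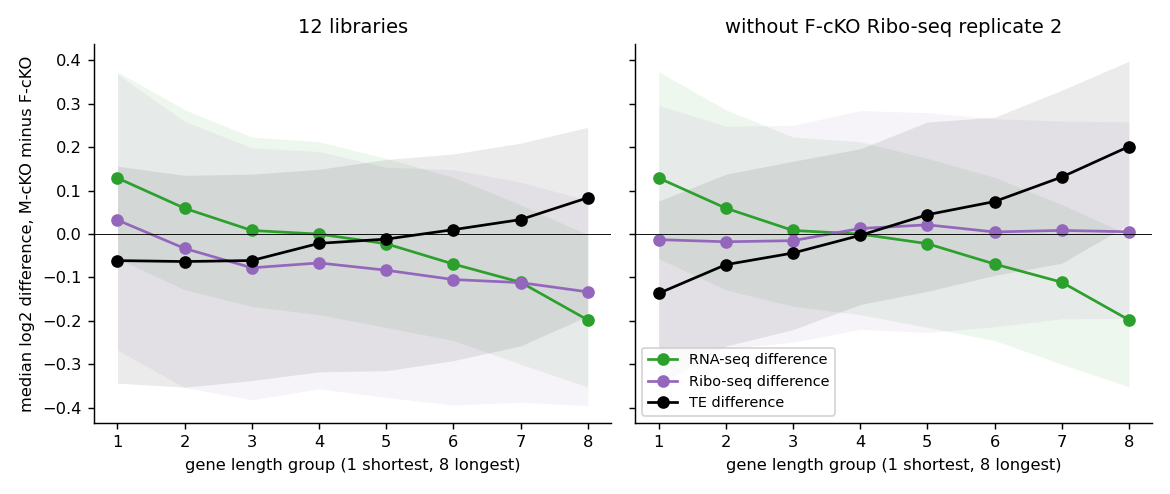
Median log2 difference, *M*-cKO minus *F*-cKO, of TE, RNA-seq and Ribo-seq in 8 groups of protein-coding genes by gene length, with quartiles shaded, for 12 and 11 libraries. RNA falls from 0.13 to -0.20 from the shortest to the longest group, and TE without *F*-cKO Ribo-seq replicate 2 goes from -0.14 to 0.20.

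For genes of the cortical lineage, the RGC gene pool of the study (471 genes) had a median TE difference of -0.01 with all libraries and 0.08 without *F*-cKO Ribo-seq replicate 2. In the 11-library set, 30 of its members were higher (6.37%) and 13 lower (2.76%) at an unadjusted *P* below 0.05, close to the 6.79% and 3.17% of all genes, and *Mfge8* was the member called by edgeR. DESeq2 called 4 of the 471 members higher and 2 lower in that set, compared to 87 higher and 31 lower of all 14314 genes. These members were *Acvr2b*, *Epha5*, *Id3*, *Mfge8*, *Notch2* and *Tsc22d1*, and none was called with all libraries. The intermediate progenitor gene pool (322 genes) had medians of 0.06 and 0.12, with 28 members higher (8.70%) and 4 lower (1.24%) in the smaller set. DESeq2 called *Lcor*, 1 of the 322 members, higher in both sets (23 and 87 of all 14314 genes were called higher), and the edgeR test of the 12 or 11 libraries called 0 of this pool. *Fabp7*, a fatty acid binding protein of radial glia, fell in *M*-cKO relative to *F*-cKO in RNA, at 336, 331 and 331 CPM compared to 538, 493 and 454 CPM (0.690-fold, adjusted *P* = 0.000394, fit of RNA-seq alone). In Ribo-seq it had 1170, 821 and 800 CPM and 1651, 1135 and 1971 CPM, which did not pass the test in the 12-library fit (log2 difference of -0.77, adjusted *P* = 0.0826). The Ribo-seq libraries of the knockouts overlapped, but within each replicate number *M*-cKO was lower, and the fit that paired the Ribo-seq libraries called this difference (-0.75, adjusted *P* = 0.0306), as did DESeq2 (adjusted *P* = 0.0313). With the numbers as a block in both assays it was not called (adjusted *P* = 0.124), nor in the fit of Ribo-seq alone (adjusted *P* = 0.585). The TE difference of *Fabp7* was -0.20 (adjusted *P* = 0.969), and -0.39 (adjusted *P* = 0.566) without *F*-cKO Ribo-seq replicate 2. *Tcf4*, a transcription factor of progenitors, had RNA of 605, 565 and 569 CPM in *M*-cKO and 798, 777 and 860 CPM in *F*-cKO, and Ribo-seq levels of 1042, 1045 and 1215 CPM and 1399, 1320 and 1357 CPM. Neither assay overlapped, and its TE difference was 0.18 (adjusted *P* = 0.929), and 0.16 without the replicate. *Fezf2*, which specifies deep-layer projection neurons, had -0.43 with and -0.54 (adjusted *P* = 0.375) without the replicate. Over 16 genes that the study examined in both assays besides *Mettl3* and *Fto*, TE differences ranged from -1.39 to 0.48 with all libraries and from -0.39 to 0.57 without the replicate. The edgeR quasi-likelihood test and DESeq2 called 0 of them. By edgeR, 1 and 3 passed an unadjusted *P* below 0.05. Over all genes, 2.21% were higher and 1.59% lower with all libraries, and 6.79% and 3.17% without the replicate.

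Zinc finger and histone genes had medians above that of all genes. Of 335 zinc finger genes, 236 had a TE difference above 0 with all libraries, with a median of 0.15, and 19 were higher (5.67%, compared to 2.21% of all genes) and 0 lower at an unadjusted *P* below 0.05. Without the replicate, the median was 0.08, with 26 higher (7.76%, compared to 6.79% of all genes) and 6 lower (1.79%, compared to 3.17%), close to the background. DESeq2 called *Zfp142* higher in both sets and *Zfp408* without the replicate (1 and 2 of 335, compared to 23 and 87 of all 14314 genes). The edgeR test of the 12 or 11 libraries called 0. For 55 replication-dependent histones the medians were 0.54 and 0.39. *Hist1h1c*, a linker histone, had 207, 176 and 153 CPM in *M*-cKO Ribo-seq and 125, 72.5 and 99.2 CPM in *F*-cKO, with RNA of 5.71 to 8.44 and 8.41 to 11.4 CPM. The Ribo-seq libraries did not overlap, and the TE difference was 1.25 ± 0.315 (adjusted *P* = 0.929), and 1.07 ± 0.263 (adjusted *P* = 0.328) without *F*-cKO Ribo-seq replicate 2. In that set DESeq2 called *Hist1h1c* (adjusted *P* = 0.024) and *Hist1h4j* (adjusted *P* = 0.0338) higher, 2 of 55 histones, compared to 87 of all 14314 genes. Most replication-dependent histone transcripts lack a poly(A) tail, and whether RNA was selected by poly(A) for RNA-seq is not given in the sources used here. Kinesins, the microtubule motors, had medians of 0.18 and 0.24, with 30 of 34 above 0 in both sets, compared to 7203 and 7917 of all 14314 genes. At an unadjusted *P* below 0.05, 0 were higher with all libraries and 3 without the replicate (8.82%, compared to 6.79% of all genes). Their median length was 1.49 times that of all protein-coding genes, and the trend of TE with length was not separated from this.

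MicroRNA (miRNA) genes were examined after the values were seen. Mature miRNAs are short RNAs that guide Argonaute proteins to messenger RNAs through their seed, bases 2 to 8, and their length falls within the fragment sizes taken for Ribo-seq, so counts on them need not come from ribosomes. They were near 0 in RNA-seq, with a largest value of 2.15 CPM and with 104 of 182 tested at 0 in all 6 libraries of the knockouts, and a TE has no meaning for them. In Ribo-seq, 156 of the 182 were higher in *M*-cKO than in *F*-cKO in the 12-library fit, with a median log2 difference of 1.58. Called higher were 19 (10.4%, compared to 1.24% of all genes), and called lower 0. Without *F*-cKO Ribo-seq replicate 2, 179 were higher, with a median of 1.93, and 47 of 182 were called higher (compared to 5.02% of all genes) and 0 lower. The 12-library calls are described below. Mature sequences (RefSeq, GRCm38.p6) are shown for 3 pairs of the 19 that share a seed and for miR-106b, the member with the smallest *P* value, with the seed in capitals.
miR-99a-5p, chr16:77598940-77598961, plus strand: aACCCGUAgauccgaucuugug
miR-99b-5p, chr17:17830194-17830215, plus strand: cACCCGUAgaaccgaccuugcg
miR-301a-3p, chr11:87113054-87113076, plus strand: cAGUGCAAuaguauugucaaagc
miR-130b-3p, chr16:17124071-17124092, minus strand: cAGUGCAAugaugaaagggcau
miR-181c-5p, chr8:84178924-84178945, minus strand: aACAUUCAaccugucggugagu
miR-181a-5p, chr2:38852741-38852763, plus strand: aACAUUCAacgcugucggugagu
miR-106b-5p, chr5:138165787-138165807, minus strand: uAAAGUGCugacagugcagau
Counts were per miRNA gene, so the arms cannot be told apart.

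*Mir99a* had Ribo-seq levels of 27835, 29871 and 10650 CPM in *M*-cKO, 2769, 3294 and 3827 CPM in *F*-cKO and 3872, 8413 and 3846 CPM in Ctrl (log2 difference of 2.79 ± 0.360, adjusted *P* = 0.0126). *Mir99b*, with the same seed, had 2584, 3343 and 661 CPM in *M*-cKO, 177, 145 and 140 CPM in *F*-cKO and 201, 300 and 172 CPM in Ctrl (3.83 ± 0.507, adjusted *P* = 0.0126). *Mir106b* had 309, 240 and 85.2 CPM in *M*-cKO and 19, 11.7 and 17 CPM in *F*-cKO (3.72 ± 0.439, adjusted *P* = 0.0115). For all 19 genes, every *M*-cKO library lay above every *F*-cKO and every Ctrl library, and *M*-cKO replicate 3 was the lowest of the *M*-cKO libraries. The 19 were chosen by their difference from *F*-cKO in these same libraries, which favours separation from *F*-cKO, so it adds no support to the calls. Together, tested miRNA genes took 5.22%, 6.73% and 2.15% of Ribo-seq counts in *M*-cKO, 1.05% to 1.48% in *F*-cKO and 1.01% to 2.31% in Ctrl, so the *M*-cKO range overlapped Ctrl. The call depended on the fit. The fit of Ribo-seq libraries alone called 0 of the 182 (smallest adjusted *P* = 0.115). At an unadjusted *P* below 0.05, 59 were higher and 0 lower, compared to 715 and 445 of all 14314 genes. With the replicate number as a block in both assays 0 were called (smallest adjusted *P* = 0.0713), with 62 higher and 0 lower unadjusted, compared to 1578 and 1175 of all genes. The fit that paired the Ribo-seq libraries only called 25 higher and 0 lower, compared to 631 and 367 of all genes. DESeq2 called 47, compared to 1074 of all genes. Small nuclear and nucleolar RNA genes had higher summed levels in both knockouts than in Ctrl. Small nuclear RNA genes summed to 4451, 6502 and 5256 CPM in *M*-cKO, 4407, 3810 and 2393 CPM in *F*-cKO and 1330 to 1645 CPM in Ctrl. Small nucleolar RNA genes summed to 41835, 30729 and 23135 CPM in *M*-cKO, 37377, 25957 and 17430 CPM in *F*-cKO and 12290 to 17093 CPM in Ctrl. As shares of Ribo-seq counts, both kinds overlapped between the knockouts, with small nuclear RNA at 0.368% to 0.558% in *M*-cKO and 0.211% to 0.370% in *F*-cKO. Recovery of small RNAs in the Ribo-seq libraries was not tested.

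**Figure D5:**
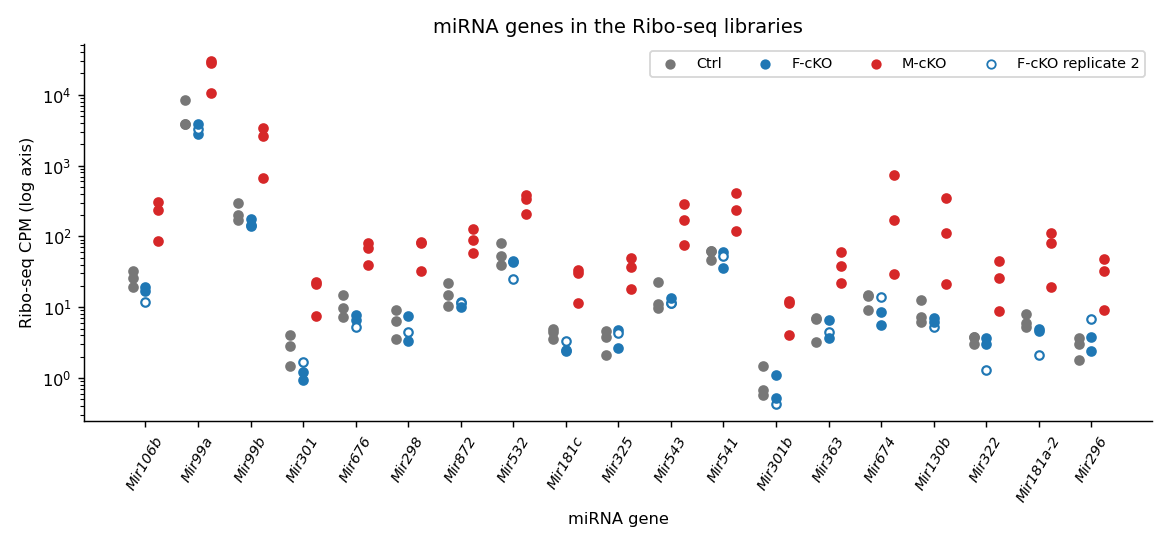
Ribo-seq CPM on a log axis of 19 miRNA genes called higher in *M*-cKO than in *F*-cKO, 1 point per library of Ctrl, *F*-cKO and *M*-cKO. Every *M*-cKO point lies above all *F*-cKO and Ctrl points of its gene, and the lowest *M*-cKO point is replicate 3 for all 19. The genes were chosen by their difference from *F*-cKO in these libraries, which favours separation from *F*-cKO.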

How the data were processed

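Per the labels and methods, RNA-seq reads were aligned to mm10 with HISAT2 2.0.5, Ribo-seq fragments of 20 to 38 nt with TopHat2, and counted per gene with HTSeq. The authors deposited counts per gene for each assay, FPKM values for RNA-seq, used here only to derive relative gene length, and RPKM values for Ribo-seq, not used for any result. For Ribo-seq, 40490 genes were blank in 8 of 9 columns and were left out, which left 14348 genes. Counts were tested with edgeR 4.0.16 (filterByExpr, TMM over both assays, quasi-likelihood, 4 groups, Benjamini-Hochberg over all genes tested, called at 0.05), where TE is the interaction of assay and genotype. RiboDiff, used in the study, was not run. Alternatives were DESeq2 1.42.0, limma 3.58.1 voom, other scalings, filters and library sets, and scripts were checked on simulated data. Named genes were the targeted genes, those with the smallest *P* values in either set, up to 4 members per group, the genes the study examined, and further called genes. Members and gene lists were chosen with earlier results of these data known, and the called noncoding genes, *Rps18*, *Rpl35*, *Rpl35a* and the miRNA genes after values were seen. Pairing by replicate number was inferred from these same counts. Deviations from the group mean correlated for same numbers of the knockouts in Ribo-seq (0.189 to 0.314, other numbers -0.197 to 0.0157), not in RNA-seq (-0.0501 to 0.0485). Unlike numbers also reached 0.488 between *F*-cKO and Ctrl Ribo-seq, and 0.351 between *F*-cKO Ribo-seq and RNA-seq. *M*-cKO Ribo-seq and RNA-seq had 0.0567 to 0.278 for same numbers and -0.189 to 0.0440 for others.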

Additional observations from a re-analysis of the deposited data

Results flagged for a closer look

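Without *F*-cKO Ribo-seq replicate 2, the RNA-seq and Ribo-seq differences between the knockouts were unequal, by the interaction test across 14327 genes, for 5 genes. Their log2 TE differences were 3.62 for *C2cd2l*, 2.25 for *Mfge8*, 4.35 for *Gm15728*, 1.97 for *Dancr* and 7.69 for *Gm37608*, each higher in *M*-cKO. *C2cd2l* was separated between the knockouts in Ribo-seq in all 6 libraries, and *Mfge8* was not, because *F*-cKO replicate 2 lay above every *M*-cKO library. Groups of 3 libraries are too small for a test of single outlying values.

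In the Ribo-seq table, 40490 genes were blank in all columns but that of *F*-cKO replicate 1, which held 46592 fragments in them. These genes entered no comparison, and no Ctrl value exists in them to set this against.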

How the results depend on the processing

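Main counts were 0 higher and 0 lower for TE, 11 for RNA-seq and 238 for Ribo-seq. Leaving out 1 library at a time gave 0 to 5 genes with higher and 0 to 0 with lower TE, 0 to 993 for RNA-seq and 2 to 1269 for Ribo-seq, with the highest counts all without *F*-cKO Ribo-seq replicate 2. Genes with higher TE numbered 1 with RLE scaling, 4 in a fit of all 18 libraries (1 lower), 23 with DESeq2 (2 lower), 5 in limma voom with sample weights and 4 with a variance per assay. Without that replicate they were 5 with RLE, 12 with all libraries of the series (4 lower), 2 among protein-coding genes, 5 with the filter in each assay, 87 with DESeq2 (31 lower) and 4 with a variance per assay. The replicate block that links Ribo-seq and RNA-seq libraries by number gave 0 higher, and 3 without the replicate. Pairing the Ribo-seq libraries only gave 2, and 8 (1 lower) without it. RNA-seq counts were 5 with RLE, 467 with 18 libraries, 0 with the block, 4397 in its own fit and 443 with DESeq2, and Ribo-seq counts 91, 1362, 3, 0 (5 without the replicate) and 1074. Alternatives without the replicate beyond leaving it out, the pairing of Ribo-seq only, the filter in each assay and the own fits were chosen after seeing the data.

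Signs turned for 12 of the genes named. Over the fits that leave out 1 library, log2 TE differences ran from -1.18 to 0.84 for *Plxna2*, -0.69 to 0.90 for *Dscam*, -1.12 to 0.70 for *Epha5*, -1.35 to 0.57 for *Epha4*, -1.35 to 0.73 for *Igf1r*, -1.80 to 0.52 for *Hsp90b1*, -1.83 to 0.46 for *Pdia4*, -2.18 to 0.43 for *Ptprz1*, -0.71 to 1.01 for *Acvr2b* and -2.44 to 0.72 for *Notch2*, with each highest value without *F*-cKO Ribo-seq replicate 2. With the replicate block as well they were 0.88, 0.89, 0.71, 0.58, 0.73, 0.45, 0.42, 0.40, 1.0 and 0.75, and with voom sample weights, which gave that library the lowest weight (0.075), 0.57, 0.70, 0.46, 0.40, 0.54, 0.25, 0.34, 0.19, 0.84 and 0.52. *Dscam* and *Acvr2b* were also 0.15 and 0.21 with the block alone and 0.38 and 0.47 with a variance per assay. *Ndufs5* ran from -0.91 to 0.25 and *Cox7a2* from -0.65 to 0.013, with each highest value without *F*-cKO Ribo-seq replicate 3. The cause was not tested. RLE and the other scalings moved the median of all genes by less than 0.1.

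The spread of 3 Ribo-seq libraries and the depth of the smallest limit which differences were detectable, and *Gm37608* rests on few RNA-seq reads. A value that misses the threshold does not show equal TE.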
